A study of Mus musculus with 36 samples.

Results

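The genes described here are the imprinted genes of distal mouse chromosome 7: H19, Igf2, Cdkn1c, Phlda2, Kcnq1ot1, Slc22a18, Kcnq1 and Ascl2. They were chosen by gene symbol, and all 8 were found among the 22761 genes of the deposited table. RNA sequencing covered 36 libraries in 9 groups of 4. Ex-fetu ureteric bud (UB), stromal progenitor (SP) and nephron progenitor (NP) cells were sorted from kidneys of CD1 mice at E11.5 and at E12.5, and each library pooled the kidneys of all embryos of a mouse. Induced SP (iSP) and NP (iNP) cells were differentiated from E14 mESC, and engineered UB (eUB, which the labels call iUB) from a line labelled Sox9-mCherry-mESC, while other passages of the study's text name the mCherry line Sox8-mCherry; each library pooled 1 batch of embryoid bodies. NP and iNP were gated as ITGA8 high and PDGFRA low, SP and iSP as ITGA8 low and PDGFRA high, both after removal of CD31 positive (endothelial) and EpCAM/RET positive (UB) cells, UB as RET and EpCAM positive, and eUB as EpCAM and mCherry positive. Embryo against culture, mouse strain against ES line, and, among ES-derived cells, UB against the other cell types and 1 ES line against another cannot be told apart. The labels of the ex-fetu UB libraries conflict: those titled E11.5 name E12.5 as the cell source, and those titled E12.5 name E11.5. The cell type label and the column names of the deposited table give the same ages as the titles. The titles were used, so that every difference below between E12.5 and E11.5 UB would change its sign under the other reading, and the comparisons of eUB with E11.5 UB and with E12.5 UB would change places. Comparisons of ex-fetu UB with SP or NP of the same age, and those between the changes in eUB and in iSP or iNP, would rest on the other UB libraries. They were run under that reading too, and calls it changed are given beside the results.

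An imprinted gene is transcribed mainly from the allele of a single parent. The 8 genes belong to a pair of neighbouring domains. In the first, H19, a non-coding RNA made from the maternal allele, and Igf2, a secreted growth factor made from the paternal allele, share enhancers beyond H19, and CTCF bound to the unmethylated maternal control region between them keeps those enhancers from Igf2. In the second, the paternal antisense RNA Kcnq1ot1 silences in cis the maternally expressed genes around it, among them Cdkn1c, which codes for the cyclin-dependent kinase inhibitor p57Kip2, Phlda2, which restrains growth of the placenta, Slc22a18, a transporter of the organic cation family, and Kcnq1, a potassium channel. Ascl2, a transcription factor of trophoblast and of intestinal stem cells, lies between Igf2 and Kcnq1. The deposited values are 1 value per gene and library, so that alleles and methylation were not measured.

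In GRCm38 the H19 gene (ENSMUSG00000000031) lies at chr7:142575529-142578143 on the minus strand, and Igf2 (ENSMUSG00000048583) at chr7:142650766-142666816, also on the minus strand, with its start 88.7 kb from that of H19. The start of Ascl2 is 391 kb from that of H19, that of Kcnq1 528 kb, that of Kcnq1ot1 718 kb, that of Cdkn1c 883 kb, that of Slc22a18 896 kb and that of Phlda2 925 kb. Kcnq1ot1 (chr7:143203458-143296549, minus strand) lies within Kcnq1 (chr7:143106362-143427042, plus strand), and their exons share 121 bases. Another annotated gene, Gm49394, shares 62.8% of the exonic bases of Igf2 on the same strand, and an antisense gene shares 30.7% of those of Cdkn1c. How reads in shared bases were assigned, and whether the counting used strand, is not given in the sources used here, so the values of these genes carry that uncertainty.

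The precursor of miR-675 is part of the H19 transcript and that of miR-483 lies within Igf2, so their mature sequences are shown as what the 2 transcripts carry. They are from RefSeq (GRCm38.p6) and are printed 5′ to 3′ with the seed (bases 2 to 8) in capitals. No mature miRNA was measured in these libraries, and the 4 seeds all differ.
mmu-miR-675-5p (chr7:142577112-142577133, minus strand): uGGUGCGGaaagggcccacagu
mmu-miR-675-3p (chr7:142577078-142577099, minus strand): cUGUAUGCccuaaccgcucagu
mmu-miR-483-5p (chr7:142654968-142654989, minus strand): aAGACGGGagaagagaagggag
mmu-miR-483-3p (chr7:142654932-142654952, minus strand): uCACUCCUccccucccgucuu

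Start-site windows (250 bases before to 50 after the start) were listed in RefSeq for Igf2, with 4 windows, and for Phlda2, Kcnq1ot1, Slc22a18 and Ascl2, with 1 each; H19, Cdkn1c and Kcnq1 were without a matching entry. The windows below are those of Phlda2 and Kcnq1ot1, whose transcripts moved differently in the data, and the Igf2 windows with the fewest and the most CG, since its transcripts start at several promoters that the gene values merge. CG, the target of DNA methylation, is in capitals.
Phlda2 (chr7:143502475-143502774, minus strand): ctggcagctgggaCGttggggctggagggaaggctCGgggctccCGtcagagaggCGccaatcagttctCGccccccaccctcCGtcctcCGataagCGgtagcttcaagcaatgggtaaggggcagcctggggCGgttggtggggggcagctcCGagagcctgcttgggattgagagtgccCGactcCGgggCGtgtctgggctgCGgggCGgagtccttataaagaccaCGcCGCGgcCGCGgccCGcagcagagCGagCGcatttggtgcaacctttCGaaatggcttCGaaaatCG
Kcnq1ot1 (chr7:143296498-143296797, minus strand): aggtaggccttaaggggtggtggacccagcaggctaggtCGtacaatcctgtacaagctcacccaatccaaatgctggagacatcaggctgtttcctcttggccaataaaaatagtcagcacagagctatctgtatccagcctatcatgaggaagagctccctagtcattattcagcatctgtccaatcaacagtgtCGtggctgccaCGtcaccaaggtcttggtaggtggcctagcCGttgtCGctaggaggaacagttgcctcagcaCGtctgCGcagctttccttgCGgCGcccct
Igf2, window of the start farthest upstream (chr7:142666767-142667066, minus strand): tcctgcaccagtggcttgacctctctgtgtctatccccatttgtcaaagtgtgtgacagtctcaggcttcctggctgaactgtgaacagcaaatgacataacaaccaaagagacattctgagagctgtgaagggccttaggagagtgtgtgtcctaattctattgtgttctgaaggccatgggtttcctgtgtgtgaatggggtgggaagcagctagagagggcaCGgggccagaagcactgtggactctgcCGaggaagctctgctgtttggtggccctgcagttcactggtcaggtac
Igf2, window of the third start (chr7:142658755-142659054, minus strand): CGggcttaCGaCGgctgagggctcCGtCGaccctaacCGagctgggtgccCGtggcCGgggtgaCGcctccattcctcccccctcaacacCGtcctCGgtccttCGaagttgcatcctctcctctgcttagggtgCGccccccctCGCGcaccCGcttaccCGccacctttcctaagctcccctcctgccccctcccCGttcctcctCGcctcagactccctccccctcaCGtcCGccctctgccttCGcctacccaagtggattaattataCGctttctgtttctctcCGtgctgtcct
The Phlda2 window held 26 CG and the Kcnq1ot1 window 9, against a median of 7 over the 32851 windows of RefSeq. The 4 Igf2 windows held 2, 14, 24 and 7 CG from the farthest upstream on. Searched on both strands, the CCAAT motif occurred 3 times in the Kcnq1ot1 window and 1 time in that of Phlda2, and 37.4% of all windows held it. TATAAA occurred in the Phlda2 window and in 13.6% of all windows.

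Values are CPM scaled by the edgeR normalisation factors of the authors (normalised CPM). The libraries held 13 to 52.5 M reads on genes, and 3 reads, taken as the limit of detection, correspond to 0.0605 to 0.223 normalised CPM. H19, Igf2, Cdkn1c, Phlda2, Kcnq1ot1 and Slc22a18 had more than 3 reads in all 36 libraries, Kcnq1 in 35 and Ascl2 in 34. Differences were tested with limma on log2(normalised CPM + 1) over all genes that reached 1 normalised CPM in 4 or more of the libraries compared, and a gene is called where its adjusted p is under 0.05. Such fold changes understate the change of low genes, so folds below are ratios of mean normalised CPM unless log2 is written.

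The labels were checked against marker genes. The summed level of 8 UB markers was 2776 to 3007 normalised CPM in eUB and 3320 to 3587 in E11.5 UB. It was at most 302 in any SP or NP library. Ret averaged 473 in eUB and 364 in E11.5 UB, and Hoxb7 70.6 and 37.1. The others averaged lower in eUB, among them Wnt9b at 66.7 against 308 and Krt8 at 696 against 1070. Pdgfra, the sort marker of SP, averaged 409.7 in iSP, 31.6 in iNP and 2.53 in E11.5 NP, so that it was higher in iNP than in E11.5 NP (log2 difference 3.15, adjusted p = 4.08e-06). Of the 6 stromal markers 5 were higher and Foxd1 lower in iNP than in E11.5 NP, with Pdgfrb at 120 against 6.35, and their summed level was 553 to 814 against 428 to 465. Against this, Foxd1, which defines kidney stroma, averaged 410.4 in E11.5 SP but 15.2 in iSP. Six2, which defines nephron progenitors, averaged 590.2 in E11.5 NP but 139 in iNP. The summed level of 8 nephron progenitor markers was 2086 to 2403 in E11.5 NP and 841 to 1371 in iNP. Itga8, a member of that list and the sort marker of NP, ran the other way, at 102 and 182. The summed level of 6 macrophage markers was 43.2 to 92.4 in ex-fetu UB and 0.223 to 0.558 in eUB, where 2 of the 6 were at 0 in every library. The summed level of the 6 erythroid markers in the table was 68.3 to 2804 in ex-fetu SP and 0 to 0.0483 in iSP, where 5 of the 6 were at 0 in every library. The summed level of 5 endothelial markers was 33.5 to 53.9 in iSP and 44.6 to 76.0 in iNP, and 7.08 to 43.1 in ex-fetu SP and NP, all of them sorted after the gate against CD31, the product of Pecam1. The summed level of 5 pluripotency markers was 2.45 to 3.41 in eUB, 5.32 to 7.63 in iSP and 4.21 to 7.12 in iNP, against 0.226 to 1.28 in the ex-fetu libraries other than E12.5 UB replicate 1. These sums move with the comparisons of ES-derived with ex-fetu cells below, and their part in the results was not tested. In bulk samples, fewer cells of a type and less RNA per cell cannot be told apart.

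E12.5 UB replicate 1 stood apart from the other E12.5 UB libraries. Its UB markers summed to 1894 against 2886 to 3049, its stromal markers to 469 against 179.97 to 187, its endothelial markers to 89.4 against 2.94 to 5.30, and its pluripotency markers to 24.3 against 0.628 to 0.663. Most log2 differences that involve E12.5 UB are therefore given with and without it, while the order of the groups includes it.

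**Figure D1:**
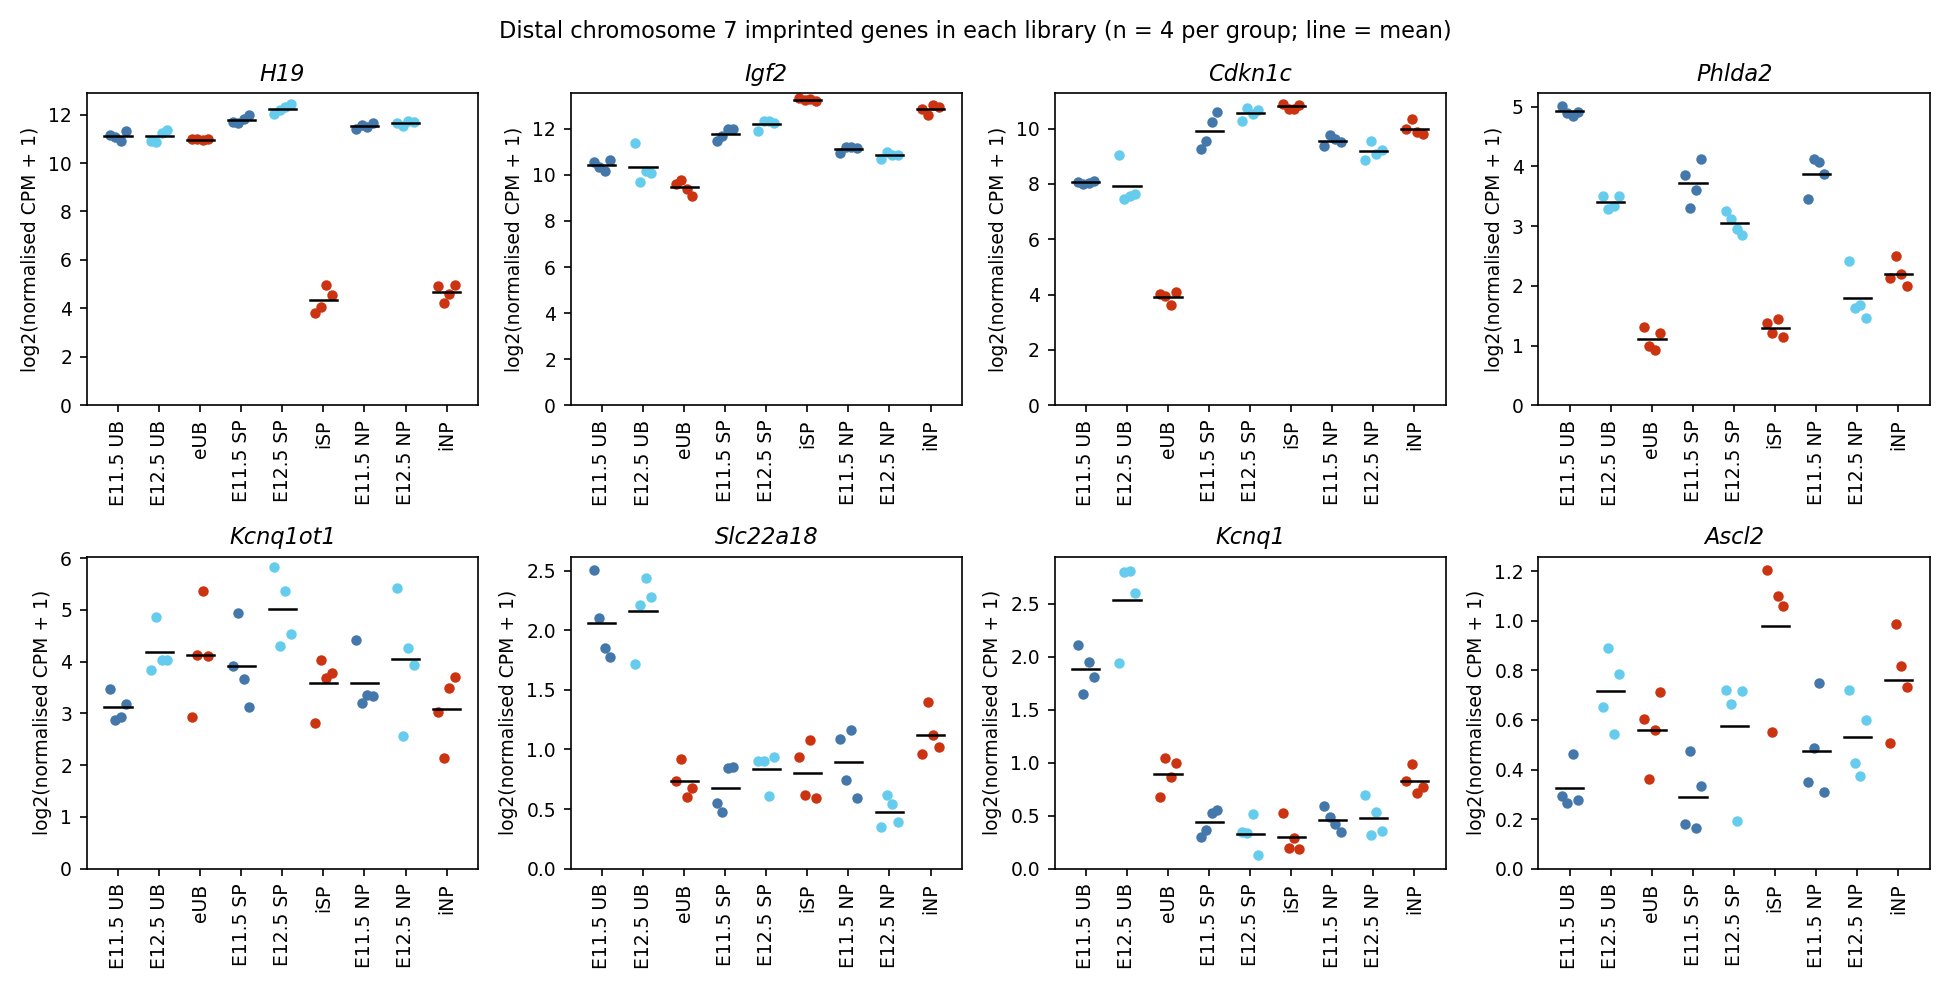
Level of each gene in each library, as log2(normalised CPM + 1), in 9 groups of 4 libraries (points; the line is the mean), with E11.5 in dark blue, E12.5 in light blue and ES-derived cells in red. H19 was at 12.9 to 30.3 normalised CPM in iSP and iNP and at 1869 to 5546 in all other libraries, while the group means of Cdkn1c and Phlda2 were lowest in eUB, at 14.3 and 1.17.

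H19 was at 1869 normalised CPM or more in every ex-fetu and eUB library and at 30.3 or less in every iSP and iNP library. In E11.5 SP it was at 3355, 3182, 3577 and 4007 normalised CPM and in E12.5 SP at 4107, 4671, 5068 and 5546. In iSP it was at 12.9, 15.8, 29.8 and 22.3. The highest iSP library thus lay far below the lowest ex-fetu SP library, and the mean was 175-fold lower than in E11.5 SP and 240.3-fold lower than in E12.5 SP (log2 difference -7.44 ± 0.22, SE, adjusted p = 1.95e-08, and -7.90 ± 0.22, adjusted p = 1.51e-08).

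The NP libraries showed the same pattern. H19 was at 2687, 3011, 2860.3 and 3204 normalised CPM in E11.5 NP and at 3199.9, 2976, 3375 and 3345 in E12.5 NP. In iNP it was at 29.5, 17.6, 23.0 and 30.3, with no overlap with either ex-fetu group. The log2 difference was -6.84 ± 0.16 against E11.5 (adjusted p = 3.65e-09) and -6.98 ± 0.17 against E12.5 (adjusted p = 1.13e-08). H19 was nonetheless above the limit of detection in every iSP and iNP library, the lowest of which held 267 reads of it.

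In eUB the level of H19 was close to that of ex-fetu UB. The eUB libraries were at 2009, 2009, 1975 and 2024 normalised CPM, within the 1919.9 to 2533 of E11.5 UB and the 1869 to 2604 of E12.5 UB. Their SD of 21 was smaller than that of E11.5 UB, 259, and of E12.5 UB, 363. The log2 difference from E11.5 UB was -0.15 ± 0.10 (adjusted p = 0.233), with a 95% interval from -0.37 to 0.08, and that from E12.5 UB was -0.13 ± 0.13 (adjusted p = 0.449), from -0.41 to 0.16, or -0.18 without E12.5 UB replicate 1. The change of H19 against E11.5 differed between cell types when tested as such: it was higher in eUB than in iSP by 7.30 ± 0.25 on the log2 scale (adjusted p = 4.12e-12) and than in iNP by 6.70 ± 0.19 (adjusted p = 1.00e-12). Between iNP and iSP the change differed by 0.60 ± 0.29 (adjusted p = 0.134; 0.0428 without iNP replicate 2 and 0.0265 without iSP replicate 3).

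Igf2, the growth factor that shares its enhancers with H19, moved the other way. In iSP it was at 10242, 9752, 10005 and 9474 normalised CPM, in E11.5 SP at 2860.1, 3254, 4048 and 4051 and in E12.5 SP at 3801, 5202, 5139.7 and 4862. The iSP libraries lay above all ex-fetu SP libraries, and the mean was 2.78 times that of E11.5 SP (log2 difference 1.49 ± 0.14, adjusted p = 1.51e-05) and 2.08 times that of E12.5 SP (1.06 ± 0.12, adjusted p = 4.40e-05).

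In iNP, Igf2 was at 7434, 6269, 8511 and 7866 normalised CPM. E11.5 NP were at 1977, 2376, 2338 and 2299 and E12.5 NP at 1658, 2049, 1843 and 1852. Again the groups did not overlap, and the mean in iNP was 3.35 times that of E11.5 NP (log2 difference 1.74 ± 0.13, adjusted p = 3.43e-06) and 4.06 times that of E12.5 NP (2.02 ± 0.14, adjusted p = 3.72e-06).

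In eUB, Igf2 was lower than in E11.5 UB. It was at 769, 871, 677 and 535 normalised CPM in eUB and at 1508, 1283, 1148 and 1602 in E11.5 UB, so the groups did not overlap (log2 difference -0.97 ± 0.16, adjusted p = 0.000518). E12.5 UB were at 2647, 816, 1164 and 1089, the highest of them replicate 1. Against these the log2 difference was -0.87 ± 0.33 (adjusted p = 0.0581), with a lower bound of -1.62 and an upper bound of -0.13 for the 95% interval. Without E12.5 UB replicate 1 it was -0.53 (adjusted p = 0.0429), and without replicate 2 it was -1.09 (adjusted p = 0.0302). It also passed with edgeR on the recovered reads (-1.0, adjusted p = 0.0448) and in a fit of all 36 samples (adjusted p = 0.000973). The change of Igf2 against E11.5 was lower in eUB than in iSP by 2.46 ± 0.22 and than in iNP by 2.7 ± 0.21 on the log2 scale (adjusted p = 1.69e-07 and 3.59e-08), and it did not pass the threshold between iNP and iSP (difference 0.25 ± 0.19, adjusted p = 0.372).

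The ratio of H19 to Igf2 within a library sums up these values without depending on its depth. It was 0.884 to 1.17 in E11.5 SP and 0.898 to 1.14 in E12.5 SP, so that both transcripts took about equal numbers of reads. It was 1.22 to 1.39 in E11.5 NP and 1.45 to 1.93 in E12.5 NP, and 1.53 to 1.67 in E11.5 UB. In eUB it was 2.61, 2.31, 2.91 and 3.78, above every E11.5 UB library. In iSP it was 0.00136 to 0.00308 and in iNP 0.00282 to 0.00411.

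On the log2 scale the mean ratio in iSP differed by -8.93 from E11.5 SP and by -8.96 from E12.5 SP, and that in iNP by -8.58 from E11.5 NP and by -8.99 from E12.5 NP. In eUB it was higher than in E11.5 UB by 0.82. Each of these 5 differences, and that between E12.5 and E11.5 NP (0.41 higher at E12.5), had an exact two-sided permutation p = 0.0286, the smallest that 4 against 4 libraries allow, and p = 0.0429 after Benjamini-Hochberg adjustment over the 9 comparisons of sources. The difference of eUB from E12.5 UB was 0.75 (exact permutation p = 0.0571, adjusted 0.0735). E12.5 UB replicate 1 had a ratio of 0.731 against 2.08 to 2.39 in the other 3, and without it the difference was 0.34. Between E12.5 and E11.5 the ratio differed by 0.07 in UB and 0.03 in SP (exact permutation p = 1 and 0.829); without E12.5 UB replicate 1 the difference in UB was 0.48.

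**Figure D2:**
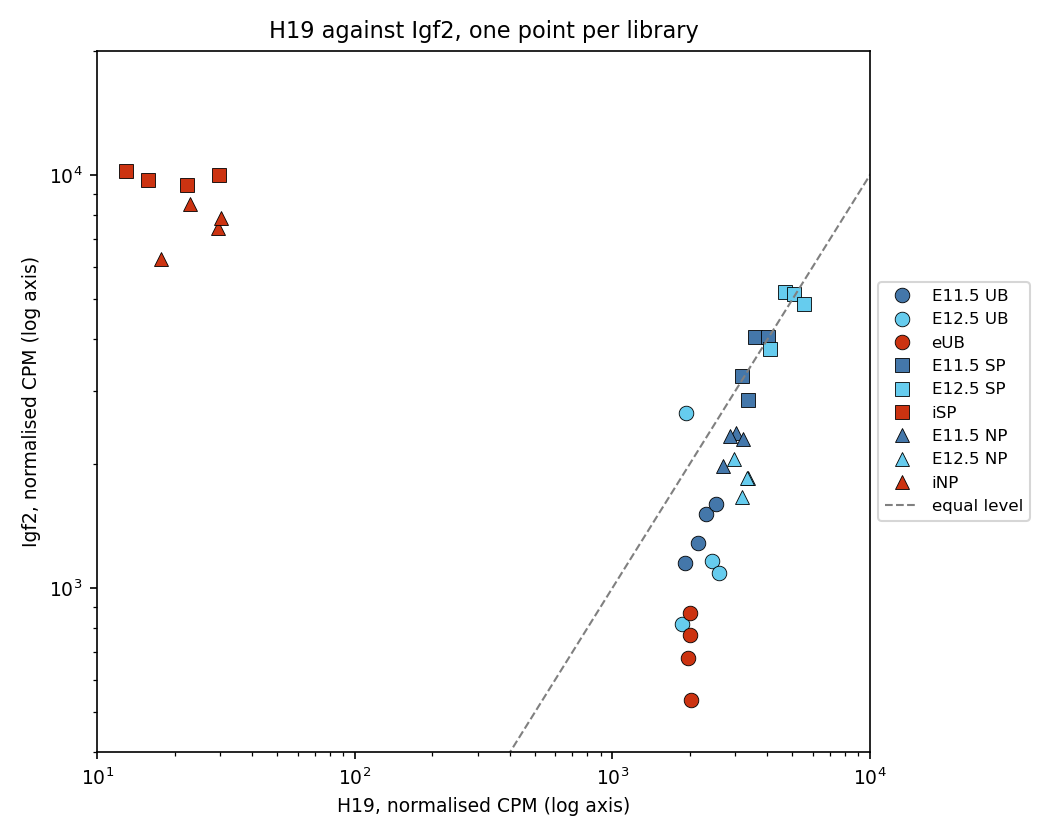
H19 (x axis) against Igf2 (y axis) in normalised CPM, both on log axes, with 1 point per library (colours mark the source, shapes the cell type) and a dashed line where the levels are equal. The iSP and iNP libraries lie apart at 12.9 to 30.3 for H19 and 6269 to 10242 for Igf2, the eUB libraries lie at 1975 to 2024 for H19 and 535 to 871 for Igf2, and the ex-fetu libraries lie near or below the line, except E12.5 UB replicate 1, which lies above it.

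In the second domain, Cdkn1c, which holds cells back from the cell cycle, was low in eUB. It was at 15.2, 14.6, 11.2 and 16.3 normalised CPM in eUB against 271, 255, 264 and 277 in E11.5 UB. The groups were far apart, with an 18.6-fold difference of means (log2 difference -4.14 ± 0.11, adjusted p = 7.81e-09). E12.5 UB were at 535, 173, 188 and 198, with replicate 1 highest, and the log2 difference from them was -4.0 ± 0.33 (adjusted p = 3.46e-05), or -3.62 without replicate 1.

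In iSP and iNP, Cdkn1c was higher than in E11.5 cells. It was at 1918, 1691, 1677 and 1869.7 normalised CPM in iSP against 609, 747, 1198 and 1540.1 in E11.5 SP, where the spread was wide (log2 difference 0.90 ± 0.26, adjusted p = 0.0115). E12.5 SP, at 1241 to 1739, overlapped with iSP (0.24 ± 0.12, adjusted p = 0.0967; 0.0443 without E12.5 SP replicate 2). In iNP it was at 1007, 1288, 938 and 905 against 661, 864, 790.2 and 728 in E11.5 NP (0.44 ± 0.14, adjusted p = 0.0174, but 0.128 in a fit of all 36 samples and 0.0542 after median-of-ratios scaling) and 468 to 754 in E12.5 NP (0.82 ± 0.18, adjusted p = 0.00407). The change of Cdkn1c against E11.5 was lower in eUB than in iSP by 5.04 ± 0.29 and than in iNP by 4.57 ± 0.17 on the log2 scale (adjusted p = 1.53e-09 and 1.65e-11).

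Phlda2 was lower in all 3 ES-derived cell types than in E11.5 cells. It was at 1.49, 0.994, 0.902 and 1.31 normalised CPM in eUB, from 20 to 37 reads, and at 31.4, 28.9, 27.8 and 29.3 in E11.5 UB. This 25.0-fold difference of means (log2 difference -3.81 ± 0.11, adjusted p = 1.43e-08) was the widest of the 3 with UB ages by the titles; against the libraries titled E12.5 UB it was 8.22-fold, beside 8.48-fold in iSP. In iSP it was at 1.59, 1.33, 1.74 and 1.22 against 13.5, 8.85, 11.1 and 16.4 in E11.5 SP (-2.42 ± 0.17, adjusted p = 2.61e-06). In iNP it was at 3.38, 4.62, 3.57 and 3.0 against 9.94, 16.4, 15.8 and 13.7 in E11.5 NP (-1.68 ± 0.17, adjusted p = 2.31e-05). None of these groups overlapped with its E11.5 counterpart.

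The Phlda2 level of E12.5 cells lay nearer to that of ES-derived cells. Against E12.5, Phlda2 was lower in eUB (log2 difference -2.30 ± 0.13, adjusted p = 5.17e-06; -2.27 without E12.5 UB replicate 1) and in iSP (-1.75 ± 0.13, adjusted p = 3.95e-06). In iNP the difference from E12.5 NP, which were at 4.34, 2.08, 2.22 and 1.75, was 0.41 ± 0.21 (adjusted p = 0.146; 0.00963 without E12.5 NP replicate 1, the highest of that group), with a 95% interval from -0.07 to 0.88. The change against E11.5 was lower in eUB than in iSP by 1.39 ± 0.21 and than in iNP by 2.13 ± 0.21 (adjusted p = 5.39e-05 and 4.35e-07). These contrasts depend on the UB ages: with the cell source labels in place of the titles, the change in eUB was 0.12 ± 0.22 above that in iSP (adjusted p = 0.676) and 0.62 ± 0.22 below that in iNP (adjusted p = 0.0308). The change was higher in iNP than in iSP by 0.74 ± 0.25 (adjusted p = 0.0364), but this passed the threshold neither after quantile normalisation (0.191), nor without any filter (0.0571), nor without 8 of the 16 libraries in turn.

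Slc22a18 and Kcnq1 were genes of the UB. In E11.5 UB, Slc22a18 was at 4.68, 3.30, 2.61 and 2.42 normalised CPM, and Kcnq1 at 3.33, 2.13, 2.87 and 2.49. In SP and NP libraries of either age Slc22a18 was at most at 1.24 and Kcnq1 at 0.616. In eUB both were below every ex-fetu UB library: Slc22a18 was at 0.668, 0.887, 0.515 and 0.602 and Kcnq1 at 0.594, 1.06, 0.816 and 0.992. Slc22a18 in eUB was thus within the range of ex-fetu SP and NP, while 3 of the 4 eUB libraries were above all of those in Kcnq1. Against E11.5 UB the log2 difference was -1.32 ± 0.17 for Slc22a18 (adjusted p = 0.000104) and -0.99 ± 0.14 for Kcnq1 (adjusted p = 0.000207), and against E12.5 UB -1.43 ± 0.17 and -1.64 ± 0.21 (adjusted p = 0.000273 and 0.000348), or -1.58 and -1.84 without E12.5 UB replicate 1. Both are low genes, read 9 to 25 times and 8 to 30 times in an eUB library. They passed the filter of these comparisons only through ex-fetu UB, where they are high, so they could hardly be called higher in eUB.

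Neither gene passed the filter in the comparisons of iSP. In iNP, Slc22a18 was at 0.950 to 1.64 normalised CPM, which overlapped with the 0.513 to 1.24 of E11.5 NP (log2 difference 0.23 ± 0.16, adjusted p = 0.232). Kcnq1 was at 0.644 to 0.984 in iNP, above all E11.5 and E12.5 NP libraries, and was not tested since it was under the filter. The change of Slc22a18 against E11.5 was lower in eUB than in iSP and iNP by 1.45 ± 0.23 and 1.55 ± 0.24, and that of Kcnq1 by 0.84 ± 0.18 and 1.35 ± 0.17 (adjusted p = 7.72e-05, 5.01e-05, 0.000871 and 6.07e-06). Kcnq1 entered both of its contrasts, and Slc22a18 that with iSP, only through E11.5 UB, where they are high. These differences therefore rest on the group that let the genes into the test. With edgeR on the recovered reads the difference of Kcnq1 between eUB and iSP did not pass (adjusted p = 0.114). The differences of Kcnq1 were -1.50 and -2.0 with UB ages by the cell source labels (adjusted p = 9.87e-05 and 6.22e-06).

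Kcnq1ot1, the silencing RNA of the domain, varied widely between replicates, the highest library of a group being 1.60 to 8.51 times the lowest, and its differences had no common direction. It was at 6.61, 16.6, 40.5 and 16.2 normalised CPM in eUB against 10.1, 6.31, 6.65 and 8.14 in E11.5 UB, so that 3 of the 4 eUB libraries lay above all E11.5 UB libraries (log2 difference 1.02 ± 0.42, adjusted p = 0.0566; 0.000248 without eUB replicate 1 and 0.0201 with edgeR). Against E12.5 UB, at 13.3, 27.9, 15.4 and 15.4, it was -0.05 ± 0.46 (adjusted p = 0.934), or -0.17 without replicate 1. In iSP it was at 6.04, 15.4, 11.9 and 12.8, below E12.5 SP at 56.2, 18.7, 40.2 and 22.3 (-1.43 ± 0.36, adjusted p = 0.00700), while E11.5 SP were at 7.72 to 29.8 and overlapped (-0.33 ± 0.38, adjusted p = 0.465).

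In iNP, Kcnq1ot1 was at 7.17, 3.41, 10.2 and 12 normalised CPM. The groups overlapped with E11.5 NP, at 8.23 to 20.5 (log2 difference -0.49 ± 0.36, adjusted p = 0.256), and with E12.5 NP, at 4.95 to 42.1 (-0.96 ± 0.54, adjusted p = 0.175; 0.0256 without E12.5 NP replicate 2). The change against E11.5 was higher in eUB than in iNP by 1.51 ± 0.60 (adjusted p = 0.0479), a call that was lost without 11 of the 16 libraries in turn (adjusted p up to 0.103), in a fit of all 36 samples (0.0767) and without any filter (0.0597). It was 0.44 ± 0.63 with UB ages by the cell source labels (adjusted p = 0.597). Against iSP the difference was 1.35 ± 0.61 (adjusted p = 0.0816; 0.0118 without eUB replicate 1, 0.0355 without E11.5 SP replicate 4 and 0.0354 with edgeR). Ascl2 was at 0.119 to 1.30 normalised CPM in all 36 libraries, from 3 to 32 reads, and was tested in no comparison.

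Counted by comparison, 5 of the 7 genes tested were lower and none higher in eUB than in E11.5 UB, where 60.5% of all 13956 genes tested were called and 28.5% were called lower. The median log2 difference of the 7 was -0.99, the value of Kcnq1, and that of all genes 0.02. The count of 5 includes Slc22a18 and Kcnq1, which passed the filter only through E11.5 UB, where they are high. They could therefore hardly be called higher in eUB, and the same holds for them against E12.5 UB. Between iSP and E11.5 SP, 4 of 5 were called, 2 in each direction, against 67.6% of all genes (35.5% higher and 32.1% lower), and between iNP and E11.5 NP 4 of 6, 2 in each direction, against 64.7% (35.5% higher and 29.2% lower). Against E12.5, 4 of 7 were called in eUB, all lower (5 of 7 without E12.5 UB replicate 1), with 44.4% of all genes called and 21.2% called lower, 4 of 5 in iSP with 62.1%, and 3 of 5 in iNP with 44.3%. The comparisons with E11.5 and with E12.5 share the ES-derived libraries and are given side by side. Where the difference between changes was tested, 6 of 7 genes were called between eUB and iSP with 47.4% of all genes, 7 of 7 between eUB and iNP with 47.1%, and 1 of 6 between iNP and iSP with 29.3%. With UB ages by the cell source labels 5 and 6 of 7 were called between eUB and iSP and between eUB and iNP. By either reading, Kcnq1 in both contrasts and Slc22a18 in that with iSP passed the filter only through ex-fetu UB, where they are high. Their part of these counts rests on the group that let them in.

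**Figure D3:**
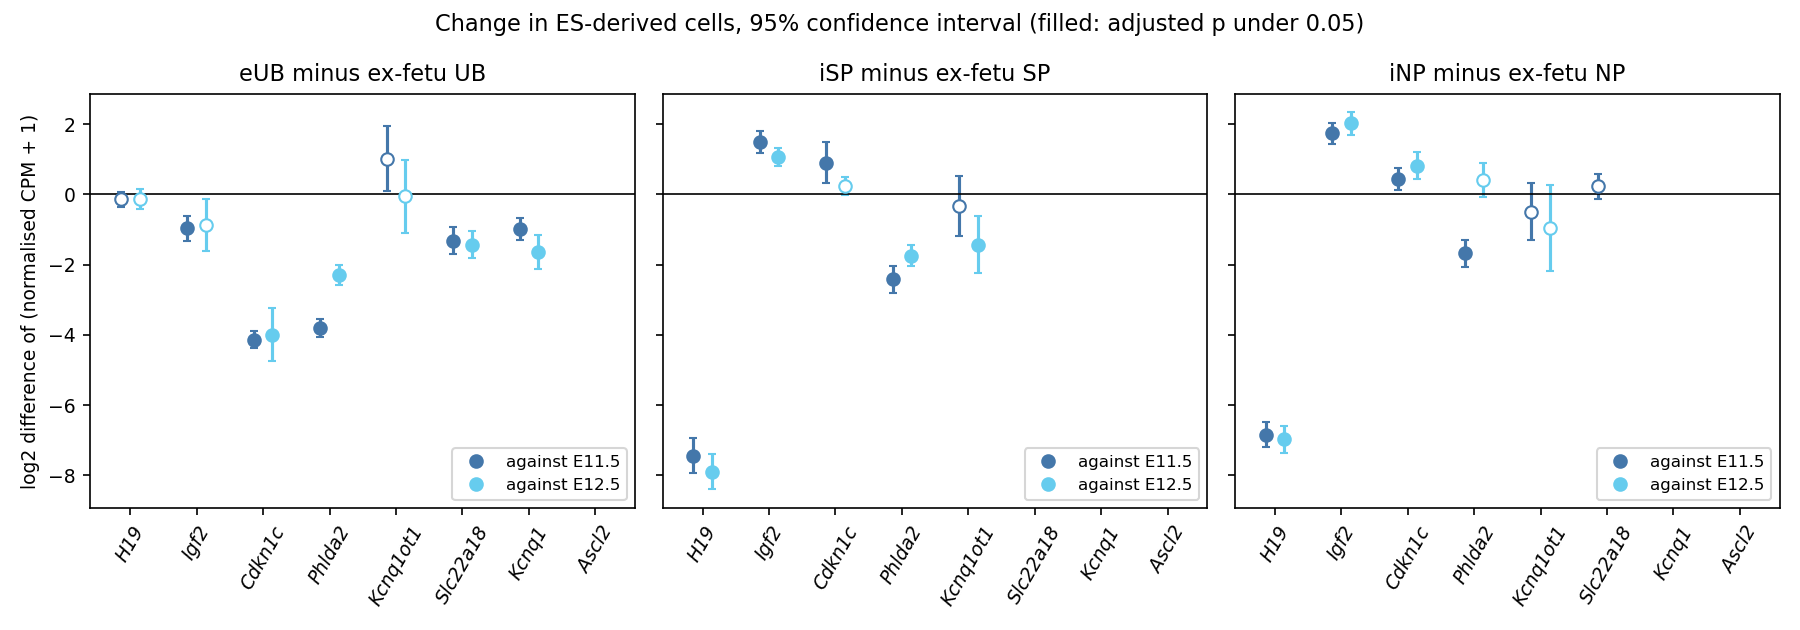
Log2 difference of each gene between ES-derived and ex-fetu cells of the same type on the log2(normalised CPM + 1) scale, against E11.5 (dark) and E12.5 (light), with 95% confidence intervals from limma, 4 libraries per group; filled points had an adjusted p under 0.05, and genes without a point were under the filter. H19 lies between -7.90 and -6.84 in iSP and iNP and at -0.15 and -0.13 in eUB, and Cdkn1c at -4.14 and -4.0 in eUB.

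Between E12.5 and E11.5 Phlda2 was the gene of the 8 called in more than 1 cell type. It was 3.04-fold lower in E12.5 UB, at 10.3, 8.76, 9.14 and 10.3 normalised CPM, than in E11.5 UB (log2 difference -1.51 ± 0.09, adjusted p = 3.49e-05; -1.54 without E12.5 UB replicate 1). It was 5.37-fold lower in E12.5 NP than in E11.5 NP (-2.08 ± 0.23, adjusted p = 0.00218). In E12.5 SP it was at 8.56, 7.72, 6.74 and 6.24, below all E11.5 SP libraries, with a difference of -0.67 ± 0.19 (adjusted p = 0.0616). This passed without E11.5 SP replicate 2 (0.0471), without E12.5 SP replicate 1 (0.0303) and in a fit of all 36 samples (0.00564).

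Kcnq1ot1 was 2.31-fold higher in E12.5 UB than in E11.5 UB with no overlap (log2 difference 1.07 ± 0.23, adjusted p = 0.00879; 0.139 in a fit of all 36 samples, and a difference of 1.19 without E12.5 UB replicate 1). It was higher by 1.10 ± 0.42 in SP and by 0.47 ± 0.53 in NP, which did not pass (adjusted p = 0.144 and 0.639). Kcnq1 was at 2.82, 5.96, 5.99 and 5.07 normalised CPM in E12.5 UB, the lowest of them replicate 1, and its difference of 0.66 ± 0.21 (adjusted p = 0.0444) did not pass without any other single library of the 8 (adjusted p = 0.0621 to 0.116), after quantile normalisation (0.143) or without any filter (0.0854). Without replicate 1 it was 0.86 (adjusted p = 0.000553).

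H19, Igf2 and Cdkn1c did not pass between E12.5 and E11.5 in any cell type. In UB the log2 differences were -0.02 ± 0.13, -0.09 ± 0.31 and -0.14 ± 0.31 (adjusted p = 0.927, 0.851 and 0.779). Without E12.5 UB replicate 1, H19 differed by 0.039 (adjusted p = 0.807), and Igf2 was lower in E12.5 UB by 0.44 (adjusted p = 0.0140) and Cdkn1c by 0.52 (adjusted p = 2.29e-05). In SP, H19 was above every E11.5 library in every E12.5 library, with a difference of 0.45 ± 0.14 (adjusted p = 0.0792; 0.0445 without E11.5 SP replicate 4, 0.0297 without E12.5 SP replicate 1, 0.0349 with edgeR and 0.0348 after quantile normalisation), and Cdkn1c was higher by 0.66 ± 0.27 (adjusted p = 0.172; 0.0383 without E11.5 SP replicate 4). In NP, Igf2 and Cdkn1c were lower at E12.5 by 0.28 ± 0.10 and 0.38 ± 0.15 (adjusted p = 0.131 and 0.161; 0.0477 and 0.0354 without E12.5 NP replicate 2).

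Of the genes tested, 3 of 7 were called between E12.5 and E11.5 UB, with 26.5% of all genes called, and 1 of 5 in NP, with 6.34%. In SP limma called 0 of 5, with 8.52% of all genes called, and edgeR called 1. Without E12.5 UB replicate 1 the count in UB was 5 of 7.

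Among ex-fetu cells, H19, Igf2 and Cdkn1c were higher in SP than in UB, and Slc22a18 and Kcnq1 higher in UB. At E11.5 the means in SP were 1.58 times those in UB for H19 (log2 difference UB minus SP -0.67 ± 0.13, adjusted p = 0.00117), 2.57 times for Igf2 (-1.36 ± 0.16, adjusted p = 3.53e-05) and 3.84 times for Cdkn1c (-1.84 ± 0.25, adjusted p = 0.000117). After quantile normalisation the difference of H19 did not pass (adjusted p = 0.111). Phlda2 was 2.36 times as high in UB as in SP (1.2 ± 0.16, adjusted p = 0.000118), Slc22a18 5.29 times (1.38 ± 0.18, adjusted p = 9.72e-05) and Kcnq1 7.56 times (1.44 ± 0.14, adjusted p = 8.37e-06). In all, 6 of 7 genes were called between E11.5 UB and SP, with 53.6% of all genes called. Slc22a18 and Kcnq1, both in this count, passed the filter only through UB, where they are high. They could thus hardly be called lower in UB, and the same holds against NP and at E12.5. With UB ages by the cell source labels the difference of Phlda2 was -0.31 ± 0.18 (adjusted p = 0.176) and 5 of 7 were called.

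E11.5 NP stood between UB and SP for Igf2. Against NP, E11.5 UB were lower in H19 (-0.40 ± 0.09, adjusted p = 0.00227; 0.0507 in a fit of all 36 samples), Igf2 (-0.71 ± 0.11, adjusted p = 9.42e-05) and Cdkn1c (-1.50 ± 0.08, adjusted p = 6.56e-09) and higher in Phlda2, Slc22a18 and Kcnq1, which made 6 of 7 genes, with 60.2% of all genes called. With UB ages by the cell source labels Phlda2 was lower in UB than in NP (-0.47 ± 0.16, adjusted p = 0.0267). Between E11.5 NP and SP 1 of 5 was called, Igf2, which was 1.58-fold lower in NP (-0.65 ± 0.14, adjusted p = 0.00402), with 43.1% of all genes called. H19 was lower in NP by 0.26 ± 0.11 (adjusted p = 0.0834; 0.0359 with edgeR), and after quantile normalisation the difference was 0.04.

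At E12.5 the differences in H19, Igf2 and Cdkn1c between UB and SP were -1.14 ± 0.14, -1.87 ± 0.32 and -2.64 ± 0.33 on the log2 scale (adjusted p = 0.000185, 0.00108 and 0.000168), and 5 of 7 genes were called with 46.4% of all genes. Without E12.5 UB replicate 1 they were -1.08, -2.22 and -3.02. Kcnq1 was 18.8 times as high in E12.5 UB as in E12.5 SP (2.20 ± 0.21, adjusted p = 3.08e-05, and 2.40 without that library). Its reads in E12.5 SP numbered 2 to 13, with replicate 4 under the limit of detection, so this fold is imprecise. With UB ages by the cell source labels Phlda2 and Kcnq1ot1 passed as well (1.87 and -1.89, adjusted p = 4.32e-07 and 0.000537). Between E12.5 UB and NP 5 of 7 genes were called, with 32.7% of all genes. Of these, Cdkn1c (-1.26 ± 0.34, adjusted p = 0.0183) was lost without E12.5 UB replicate 2, 3 or 4 (0.0571, 0.0568 and 0.0578) and with edgeR (0.0535), and stood at -1.64 without replicate 1, and Igf2 (-0.52 ± 0.31, adjusted p = 0.236) passed without replicate 1 (-0.87, adjusted p = 0.00143) and in a fit of all 36 samples (0.0470). H19 was lower in UB (-0.56 ± 0.13, adjusted p = 0.00893; 0.216 after quantile normalisation; -0.50 without replicate 1). Igf2 passed with UB ages by the cell source labels (-0.43, adjusted p = 0.0176), and the difference of Phlda2 was then 3.12 in place of 1.61.

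Between E12.5 NP and SP, 4 of 5 genes were called, all lower in NP, with 34.8% of all genes called and 17.8% called lower. H19 differed by -0.58 ± 0.12, Igf2 by -1.35 ± 0.13, Cdkn1c by -1.38 ± 0.17 and Phlda2 by -1.25 ± 0.22 (adjusted p = 0.00497, 4.48e-05, 0.000166 and 0.00151; H19 0.0551 without any filter). Same-numbered E12.5 NP and SP libraries deviated together, and in a fit blocked on the replicate number 5 of 5 were called, Kcnq1ot1 being the addition (-0.96, adjusted p = 0.00614 against 0.222 without the block), while the count over all genes rose from 4789 to 7961.

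Among ES-derived cells the differences between cell types were of another size. H19 was 99.3 times as high in eUB as in iSP (log2 difference 6.63 ± 0.21, adjusted p = 3.90e-09) and 79.7 times as high as in iNP (6.29 ± 0.16, adjusted p = 3.44e-09). Igf2 was 13.8-fold lower in eUB than in iSP and 10.5-fold lower than in iNP (-3.81 ± 0.14 and -3.41 ± 0.17, adjusted p = 1.26e-08 and 2.25e-07), and Cdkn1c 125-fold and 72.2-fold lower (-6.88 ± 0.11 and -6.08 ± 0.15, adjusted p = 8.46e-11 and 2.87e-09). In all, 3 of 5 genes were called between eUB and iSP, with 64.7% of all genes, and 4 of 5 between eUB and iNP, with 52.2%.

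Between iNP and iSP, both from E14 mESC, 3 of 6 genes were called, with 30.7% of all genes. Cdkn1c was lower in iNP (-0.80 ± 0.13, adjusted p = 0.000985) and Phlda2 higher (0.91 ± 0.13, adjusted p = 0.000590). Igf2 was lower in iNP by 0.40 ± 0.13 (adjusted p = 0.0456), and this did not pass without 6 of the 8 libraries in turn (0.0817 to 0.112), after quantile normalisation (0.301), without any filter (0.348) or in a fit of all 36 samples (0.165). H19 differed by 0.34 ± 0.26 (adjusted p = 0.354).

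The 9 groups were ordered by the mean of log2(normalised CPM + 1), which can differ from the order of the plain means. In a fit of all 36 samples, H19 passed at a single step between neighbours. E12.5 SP were highest at a mean of 4848 normalised CPM, and each of the next 6 groups down to eUB, at 2004, did not differ from the next beyond the spread (adjusted p = 0.0507 to 0.955), while the step from eUB to iNP did (adjusted p = 3.17e-24). Groups farther apart within the upper 7 differed: those given above include UB against SP at both ages and NP against SP at E12.5, each fitted on its own. Igf2 ran from iSP, at 9868, and iNP, at 7520.0, through SP, NP and UB to eUB at 713. Its steps from iNP to E12.5 SP, from E11.5 SP to E11.5 NP and from E12.5 UB to eUB passed (adjusted p = 0.00645, 0.0136 and 0.000973), and the others did not.

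Cdkn1c ran from iSP, at 1789, to eUB, at 14.3, with steps between E12.5 SP and iNP, between E12.5 NP and E11.5 UB and between E12.5 UB and eUB (adjusted p = 0.0469, 0.000302 and 1.52e-14). Phlda2 was highest in E11.5 UB, apart from E11.5 NP as the next (adjusted p = 7.76e-06), and lowest in iSP and eUB, which did not differ beyond the spread (adjusted p = 0.378). No neighbouring groups differed beyond the spread in Kcnq1ot1 (adjusted p = 0.165 to 1). Kcnq1 and Slc22a18 were highest in E12.5 and E11.5 UB, and the step from E11.5 UB to the next group passed for both (adjusted p = 7.85e-07 and 7.77e-06). Kcnq1 passed the filter of this fit only through the ex-fetu UB libraries. Per kb of exon, H19 in E11.5 SP was at 1435 normalised CPM and Igf2 at 621, while in iSP H19 was at 8.20 and Igf2 at 1724; Cdkn1c was at 502 and 877 per kb in the same groups.

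The other genes of the region were examined to see whether they moved along. Of 13 listed genes between Igf2 and Dhcr7, which lies 1245 kb from H19, 12 were in the table and 9 passed the filter in the comparison of eUB with E11.5 UB, of which 4 were higher and 2 lower (median log2 difference 0.16); 2 were higher and 2 lower of 7 in iSP (-0.04), and 2 were higher and 1 lower of 7 in iNP (0.02). The medians over all genes were 0.02, 0.04 and 0.07, and 60.5%, 67.6% and 64.7% of all genes were called. Cars, a transfer RNA synthetase 1022 kb from H19, was lower in all ES-derived cells, at means of 67.4 normalised CPM in eUB, 59.1 in iSP and 65.4 in iNP against 163, 167 and 169 in E11.5 UB, SP and NP (adjusted p = 2.04e-06, 4.12e-05 and 3.89e-06). Tnfrsf22, a decoy death receptor, was higher in all 3 (17.8, 11.5 and 11.7 against 5.92, 5.53 and 3.91; adjusted p = 7.27e-06, 0.000191 and 1.15e-05), and so was Dhcr7, the last enzyme of cholesterol synthesis (adjusted p = 0.000143, 0.0257 and 0.000147). Tnfrsf23 was higher in eUB (5.54 against 0.719, adjusted p = 4.31e-06). Nap1l4, next to Phlda2, did not pass in any of the 3 comparisons, with log2 differences of -0.12, 0.06 and 0.02.

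On the other side of H19, 11 genes within 659.6 kb were listed. Of those tested, 0 were higher and 2 lower of 8 in eUB (median log2 difference -0.12), 0 and 6 of 7 in iSP (-0.47), and 3 and 4 of 9 in iNP (0.08), beside the same medians and shares of all genes. Dusp8, a phosphatase of MAP kinases 482 kb from H19, had the H19 pattern: its mean was 2.24 normalised CPM in iSP against 119.9 in E11.5 SP (log2 difference -5.17 ± 0.27, adjusted p = 4.15e-07) and 3.16 in iNP against 69.2 in E11.5 NP (-3.92 ± 0.33, adjusted p = 6.40e-06). In eUB it was 123 against 118 (0.08 ± 0.29, adjusted p = 0.836). Mrpl23, the nearest gene beyond H19 at 45.5 kb, differed by -0.23, -0.42 and 0.10 in eUB, iSP and iNP, of which that in iSP passed. Mob2 was lower by 0.92 to 1.06 in all 3 (adjusted p = 1.17e-05, 2.46e-05 and 7.81e-05). Tollip was lower in iSP and iNP (adjusted p = 4.84e-05 and 0.00264), and Ifitm10 lower in eUB and higher in iNP (adjusted p = 4.09e-05 and 0.0420).

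**Figure D4:**
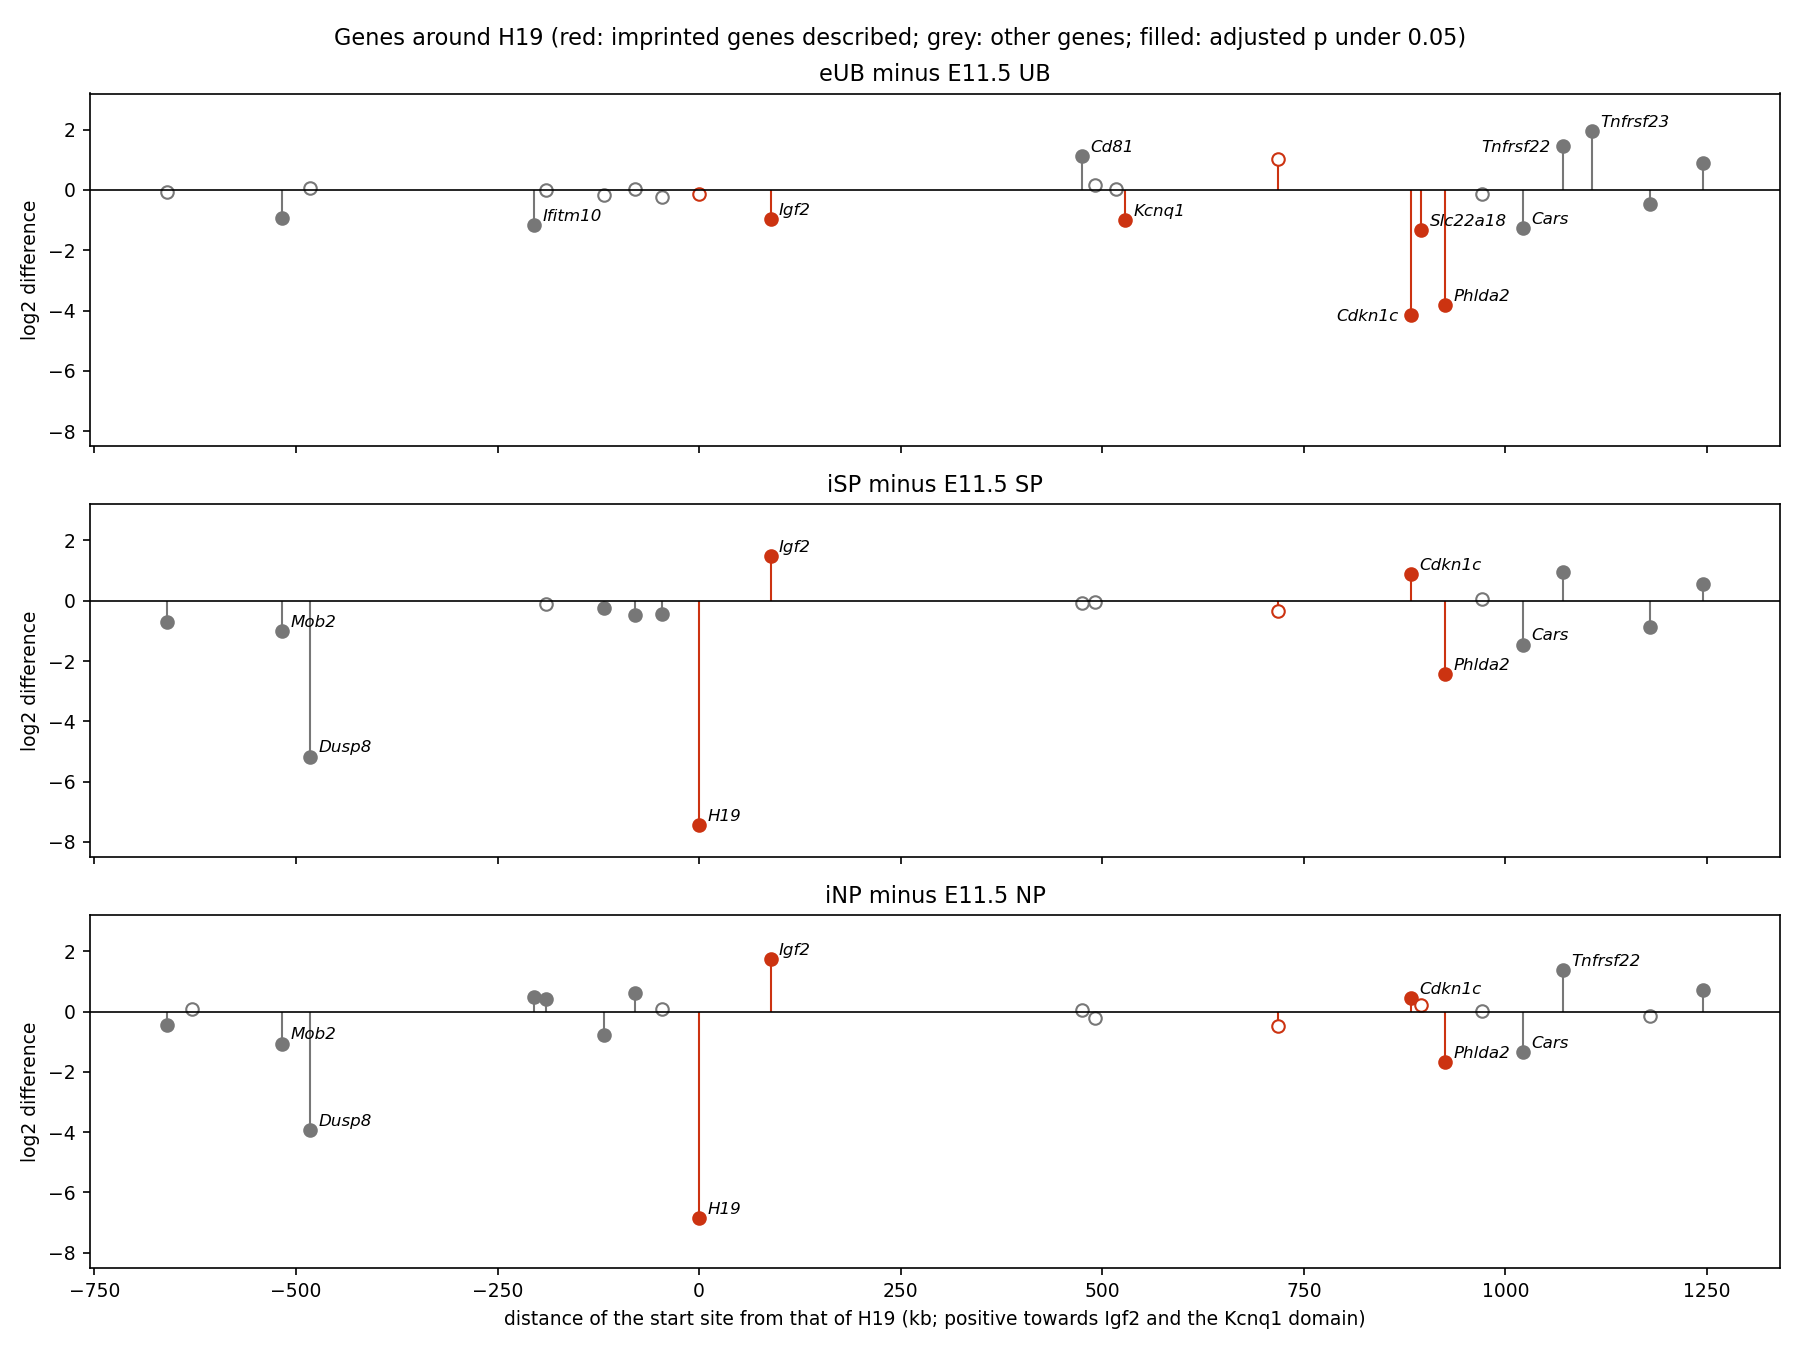
Log2 difference between ES-derived and E11.5 cells (y axis, on the log2(normalised CPM + 1) scale) for the genes tested around H19, against the distance of their start site from that of H19 in kb (x axis); filled points had an adjusted p under 0.05. In iSP and iNP, H19 and Dusp8 lie lowest while Igf2, 88.7 kb from H19, lies highest, and in eUB Cdkn1c and Phlda2 lie lowest.

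Among genes that act with Igf2 calls ran in both directions. Of 17 genes of the insulin-like growth factor pathway, 5 were higher and 7 lower of 15 tested in eUB (median log2 difference -0.33), 5 and 7 of 16 in iSP (0.06) and 7 and 3 of 16 in iNP (0.12), all against E11.5. So 12 of 15, 12 of 16 and 10 of 16 were called, where 60.5%, 67.6% and 64.7% of all genes were, with medians of 0.02, 0.04 and 0.07. Igf2r, the receptor that clears IGF2 and is imprinted itself, was at a mean of 24.6 normalised CPM in eUB against 440.2 in E11.5 UB (-4.12 ± 0.12, adjusted p = 1.71e-08), and at 781 in iNP against 272.5 in E11.5 NP (1.44 ± 0.25, adjusted p = 0.000614). In iSP it was at 742 against 614 (0.28 ± 0.12, adjusted p = 0.0638). Igf1, the related ligand, was at 338 in iSP against 10.4 in E11.5 SP (5.50 ± 0.66, adjusted p = 6.05e-05) and at 33.6 in iNP against 1.94 (3.55 ± 0.18, adjusted p = 3.40e-07), and lower in eUB (0.279 against 2.02, adjusted p = 3.20e-05). Igfbp2, a secreted binding protein, was higher in eUB, iSP and iNP (log2 differences 0.71, 2.01 and 2.31). Igf2bp1, which binds the Igf2 messenger RNA, was lower in all 3 (-1.53, -1.15 and -1.22; adjusted p = 3.05e-06, 8.19e-05 and 1.36e-05).

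Among 6 other inhibitors of cyclin-dependent kinases, 4 were higher and 0 lower in eUB (median log2 difference 0.75), 4 higher and 2 lower in iSP (0.46), and 4 higher and 1 lower of 5 tested in iNP (1.02). Of all genes 60.5%, 67.6% and 64.7% were called in these comparisons. Cdkn1a, which codes for p21, ran opposite to Cdkn1c: it was at 693 normalised CPM in eUB against 223 in E11.5 UB (1.63 ± 0.09, adjusted p = 3.63e-07), at 3.83 in iSP against 52.1 (-3.47 ± 0.19, adjusted p = 5.81e-07) and at 16.8 in iNP against 41.8 (-1.25 ± 0.14, adjusted p = 4.56e-05). Cdkn2a and Cdkn2c were higher in all 3, at 2.16 to 3.27 and 3.29 to 5.56 in ES-derived cells against 0.0742 to 0.254 and 0.644 to 1.2 in E11.5 cells. Cdkn2d was higher in iSP and iNP (log2 differences 0.42 and 1.02).

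The genes whose levels were most like those of H19 over the 36 libraries were imprinted genes of other chromosomes and genes of other kinds. By Pearson's r of log2(normalised CPM + 1) over 16001 genes they were Peg13 (r = 0.981), Nnat (0.981), Hprt (0.974), Plagl1 (0.961) and Atf4 (0.959). Each was low in iSP and iNP alone: Hprt, a purine salvage enzyme on the X chromosome, was at 0.526 normalised CPM in iSP and 0.273 in iNP and at 33.3 to 49.8 in the other 7 groups, and Atf4, a stress transcription factor, at 133 and 165 against 472 to 716. These correlations rest on 9 groups, and the 8 iSP and iNP libraries share an ES line.

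Most like Igf2 were Fndc5 (r = 0.955), Col26a1 (0.951), Igf2os (0.947), Isoc2a (0.939) and Heg1 (0.936). Igf2os, a transcript antisense to Igf2, was at 99.0 normalised CPM in iNP and 77.1 in iSP against 9.62 to 55.4 in the other 7 groups. Most like Cdkn1c were its antisense neighbour RP23-124B2.7 (ENSMUSG00000108934, r = 0.987), Pth1r (0.965), Nsg1 (0.963), Aldh6a1 (0.939) and Efna3 (0.937). The antisense gene was at 0.338 in eUB and 10.5 to 73.1 elsewhere. Overlapping exons tie the values of an antisense gene to those of its partner unless counting used strand.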

How the data were processed

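The authors trimmed reads with Cutadapt and aligned them with STAR; the notes write the genome as GRCh38, although the gene identifiers are mouse Ensembl identifiers. The counting program, its use of strand and the annotation release are not given in the sources used here. The deposited signal values are CPM that the authors scaled by edgeR normalisation factors. In all libraries 100% of them were a whole number of reads within 0.001 of a read, which gave the reads back. A further deposited table holds the same values beside the authors' means, fold changes and p-values, which were not used.

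Genes that reached 1 normalised CPM in 4 or more libraries of a comparison were tested with limma 3.58.1 (lmFit and eBayes with trend) in R 4.3.3 on log2(value + 1), with only the groups compared and Benjamini-Hochberg adjustment over all genes tested; differences between changes were contrasts of 4 groups. The order of groups used all 36 libraries. Ratios were compared by exact permutation. The tests were checked on simulated data. Per the labels each library pools either embryos of 1 mouse or embryoid bodies of 1 batch, and p-values measure the spread between these libraries. Libraries of a group differed by more than counting error (chi-square per degree of freedom at least 4.14).

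The replicate numbers come from the titles. Same-numbered libraries deviated together in all 4 pairs, from r = 0.543 to 0.700, only between E12.5 NP and E12.5 SP.

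The genes and lists were chosen with earlier results of these data known. Named are the 8 genes, the 5 genes most like H19, Igf2 and Cdkn1c, up to 4 genes of each list with the largest summed absolute log2 change among those called against E11.5, and markers; Nap1l4 and Mrpl23, chosen after their values were seen, stand outside this rule. Alternatives were a pseudocount of 0.1, no filter, a fit of all 36 samples, quantile normalisation, median-of-ratios scaling, edgeR 4.0.16 (quasi-likelihood, TMM) on the recovered reads, the replicate number as a block, each library left out in turn and, chosen after seeing the data, UB ages by the cell source labels. Positions and sequences are from GENCODE vM21 (GRCm38) and RefSeq (GRCm38.p6). Python 3.11.15, numpy 2.4.6, scipy 1.17.1, pandas 2.3.3 and matplotlib 3.10.9 were used.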

Additional observations from a re-analysis of the deposited data

Results flagged for a closer look

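In 72 groups of 4 libraries, 6 values lay farther from the other 3 than a gap test at the 95% level allows, where chance alone gives about 3.6. Cdkn1c was at 535 normalised CPM in E12.5 UB replicate 1 against 173 to 198, in the library with more stromal, endothelial and pluripotency markers than the others of its group. Kcnq1ot1 was at 27.9 in E12.5 UB replicate 2 and at 20.5 in E11.5 NP replicate 1, above the others of each group. Slc22a18 was at 0.526 in E12.5 SP replicate 3, below the others, and Ascl2 at 0.143 in that library and at 0.378 in E11.5 UB replicate 3, each from few reads.

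The change from E11.5 to ES-derived cells differed between cell types for 14 pairs of gene and contrast by limma's test of the difference itself. Between eUB and iSP the differences on the log2 scale were 7.30 for H19, -2.46 for Igf2, -5.04 for Cdkn1c, -1.39 for Phlda2, -1.45 for Slc22a18 and -0.84 for Kcnq1. Between eUB and iNP they were 6.70 for H19, -2.70 for Igf2, -4.57 for Cdkn1c, -2.13 for Phlda2, 1.51 for Kcnq1ot1, -1.55 for Slc22a18 and -1.35 for Kcnq1. Between iNP and iSP it was 0.74 for Phlda2. Kcnq1 in both contrasts with eUB, and Slc22a18 in that with iSP, passed the filter only through E11.5 UB, where they are high. With the UB ages of the cell source labels in place of the titles, that of Phlda2 between eUB and iSP (0.12) and that of Kcnq1ot1 between eUB and iNP (0.44) did not pass, and that of Phlda2 between eUB and iNP was -0.62. The eUB come from another ES line than iSP and iNP, so that line and cell type cannot be told apart in the differences that involve eUB.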

How the results depend on the processing

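The 7 other settings (a pseudocount of 0.1, no filter, a fit of all 36 samples, quantile normalisation, median-of-ratios scaling, edgeR, the replicate block) kept direction and side of the threshold in 837 of 882 log2 differences of the 8 genes, and leaving out a library did so in 1090 of 1168. The count of these genes called between iNP and E12.5 NP went from 3 to 5 without any filter and to 6 in a fit of all 36 samples, between eUB and iSP from 3 to 5 without any filter, between E11.5 NP and SP from 1 to 2 with edgeR, and between E12.5 and E11.5 SP from 0 to 1 in a fit of all 36 samples, after quantile normalisation and with edgeR. Without the filter and in the fit of all samples more genes are tested. For the difference between the changes in iNP and iSP it went from 1 to 0 after quantile normalisation and with the replicate block. Over all genes the count between E12.5 and E11.5 went from 1162 to 3141 in SP and from 850 to 1572 in NP in a fit of all 36 samples. The cause of the other changes was not tested.

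In a fit with a replicate block, the count over all genes between E12.5 and E11.5 UB went from 3648 to 2365 and between E12.5 NP and SP from 4789 to 7961. Only in the last pair did all 4 same-numbered libraries deviate together. In the others at most 3 of 4 pairs did so, and whether same-numbered libraries came from the same mouse or culture is not given in the sources used here. There the block took from the calls of single genes Kcnq1 between E12.5 and E11.5 UB (adjusted p = 0.0962), Igf2 between iNP and iSP (0.112), Phlda2 in the difference of iNP and iSP changes (0.0623) and Kcnq1ot1 in that of eUB and iNP changes (0.0540), and added Kcnq1ot1 between E11.5 UB and NP (0.0192).

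With each library left out in turn, the count over all genes ranged from 188 to 2289 between E12.5 and E11.5 NP, from 420 to 2943 in SP and from 2359 to 6031 in UB (6031 without E12.5 UB replicate 1), and that of the 8 genes from 1 to 3, 0 to 2 and 2 to 5, and from 0 to 2 for the difference between iNP and iSP changes. The log2 ratio of H19 to Igf2 ranged from 0.69 to 0.92 between eUB and E11.5 UB, -9.13 to -8.73 and -9.16 to -8.76 between iSP and E11.5 and E12.5 SP, -8.67 to -8.49 and -9.08 to -8.90 between iNP and E11.5 and E12.5 NP, and, between E12.5 and E11.5, 0.37 to 0.50 in NP, -0.029 to 0.11 in SP and -0.090 to 0.48 in UB. With 3 against 4 libraries its p cannot go below 0.0571, so these calls are lost by construction. After quantile normalisation the ratio between E12.5 and E11.5 NP was 0.28 (exact permutation p = 0.114).

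With UB ages by the cell source labels, an alternative chosen after seeing the data, Phlda2 changed its sign between E11.5 UB and SP (-0.31), between E11.5 UB and NP (-0.47) and between the changes of eUB and iSP (0.12), and Kcnq1ot1, which had not passed, between E11.5 UB and SP (0.28), E11.5 UB and NP (0.61) and E12.5 UB and NP (-0.93).

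Under the other settings signs changed in differences that had not passed. After quantile normalisation these were Slc22a18 between iNP and E11.5 NP (-0.030) and between the changes of iNP and iSP (-0.16), H19 between E12.5 and E11.5 UB (0.092) and between E11.5 NP and SP (0.042), and Kcnq1ot1 between E12.5 UB and NP (-0.060). With edgeR they were Kcnq1ot1 between eUB and E12.5 UB (0.16) and between E12.5 UB and NP (-0.15), and Igf2 (0.038) and Cdkn1c (0.029) between E12.5 and E11.5 UB. With a library left out, Kcnq1ot1 ranged from -0.59 to 0.016 between iSP and E11.5 SP, -0.47 to 0.35 between eUB and E12.5 UB, -0.61 to 0.017 between E11.5 NP and SP, -0.36 to 0.60 between E12.5 UB and NP and -0.51 to 0.15 between the changes of iNP and iSP, and between E12.5 and E11.5 UB, H19 from -0.10 to 0.055, Igf2 from -0.44 to 0.12 and Cdkn1c from -0.52 to 0.023. Slc22a18, Kcnq1 and Ascl2 rest on 2 to 145 reads a library, which limits the precision of their differences.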

Other observations

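A further pair of lists, of other imprinted genes and of genes that keep imprints, were compared between ES-derived and E11.5 cells. Of 24 imprinted genes outside the distal chromosome 7 domains, 6 were higher and 7 lower of 22 tested in eUB (median log2 difference 0.00), 10 and 6 of 23 in iSP (0.13) and 8 and 6 of 23 in iNP (0.13), with 60.5%, 67.6% and 64.7% of all genes called. Grb10, an adaptor that restrains growth signalling, was lower in eUB, at 0.866 normalised CPM against 1001, and in iSP and iNP, at 132 and 155 against 1605 and 2135 (adjusted p = 1.80e-10, 6.19e-08 and 6.38e-08). Plagl1, a transcription factor known to act on imprinted genes, was at 0.201 in iSP against 331 and at 0.685 in iNP against 107 (adjusted p = 1.93e-09 and 2.71e-08), and at 204 in eUB against 257 (adjusted p = 0.0587). Nnat was lower in iSP and iNP (log2 differences -6.92 and -6.33) and Peg13 in all 3 (-5.58 and -4.58, and -0.59 in eUB).

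Of 12 genes that set or keep imprints, 11 were tested. In eUB 2 were higher and 2 lower (median log2 difference 0.03), in iSP 1 and 1 (-0.10), and in iNP 1 and 7 (-0.39). So 4, 2 and 8 of the 11 were called, where 60.5%, 67.6% and 64.7% of all genes were, with medians of 0.02, 0.04 and 0.07. In iNP, Zfp57, which binds methylated imprint control regions, was at 35.9 normalised CPM against 13.6 in E11.5 NP (adjusted p = 4.31e-06) and Zfp445, which acts with it, at 40.7 against 88.7 (adjusted p = 0.0250). The Polycomb genes Eed and Suz12 were lower in iNP (log2 differences -0.69 and -0.54, adjusted p = 0.000158 and 0.00129). In iSP, Eed was lower (-0.47, adjusted p = 0.00661), and in eUB, Suz12 was higher (0.37, adjusted p = 0.0193). DNA methylation was not measured.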
